A study of Mus musculus with 13 samples.

Results

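The comparison described here is between small RNAs of leptotene/zygotene (L/Z) spermatocytes, the cells entering meiosis, and spermatogonia, the mitotic germ cells that precede them, in testes lacking Pld6. Its members were the 8 samples whose titles carry a technical replicate number, of 13 samples in all: 2 biological samples of L/Z spermatocytes and 2 of spermatogonia, each sequenced in 2 runs. The labels gave the cell stage but no genotype. The column headers of the 8 tables named every one of them a Pld6 KO, so both sides of the comparison were taken as KO, and no wild-type cell enters the comparison of stages. All samples came from C57BL6/J males aged 3 to 4 weeks, and the cells were sorted by FACS after staining of live cells with Hoechst-33342, a DNA dye. Small RNA libraries cannot show the Pld6 transcript, so the deletion itself was not checked. Nothing states that the biological replicates came from separate animals, and the p-values below measure only the spread between these samples. A sorted fraction is a bulk sample, in which more cells of a kind and more small RNA per cell cannot be told apart.

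Germ cells make piRNAs, which are longer than miRNAs and guide PIWI proteins to the transcripts of retrotransposons. Primary piRNAs are cut from long precursors at the mitochondrial surface by PLD6 (also called MitoPLD, the mouse counterpart of fly Zucchini), and they mostly begin with U. In the ping-pong cycle, a PIWI protein loaded with one piRNA cuts a transcript of the opposite strand, which sets the 5′ end of a second piRNA. The 5′ ends of such partners lie 10 nt apart on opposite strands, and the second partner tends to carry A at base 10. The retrotransposons followed below are the short non-coding SINEs B1 and B2, the endogenous retrovirus IAP, and L1, the LINE that encodes its own reverse transcriptase.

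The sequences that carried most of the difference lay on B1, and the most read of them are given first, because their overlaps and their levels are used throughout. Positions are those of the 5′ end on a B1 stretch of 135 nt that was assembled from mouse transcripts. Each sequence is one form of many, since B1 copies differ in a few bases. Capitals mark the first 10 nt, which in each of the first 3 pairs are the exact reverse complement of the first 10 nt of the partner.
B1 position 82, sense: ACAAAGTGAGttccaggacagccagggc
B1 position 91, antisense: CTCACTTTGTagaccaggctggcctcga
B1 position 82, sense, second form: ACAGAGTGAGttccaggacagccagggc
B1 position 91, antisense, second form: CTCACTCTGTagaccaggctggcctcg
B1 position 52, sense: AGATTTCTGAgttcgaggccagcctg
B1 position 61, antisense: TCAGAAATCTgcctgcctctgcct
B1 position 121, antisense: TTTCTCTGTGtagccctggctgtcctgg
B1 position 19, sense: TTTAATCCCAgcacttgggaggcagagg

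The first sequence, read from position 82, was counted at 319.6 and 304 reads per 1000000 reads of the library (RPM) in L/Z replicates 1 and 2 and at 28.1 and 11.7 RPM in spermatogonia replicates 1 and 2. Its partner from position 91 was counted at 339 and 243 RPM against 67.1 and 83.3 RPM. The position 121 sequence was counted at 265 and 355 RPM against 24.5 and 17.5 RPM. In each of these sequences both L/Z values lay above both spermatogonia values. A run of 16 nt at the start of the second form from position 91 also occurs in the annotated miRNA miR-3470b, so its reads cannot be told apart from that miRNA.

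The 8 libraries held between 852565 and 7725276 reads, 16987137 in L/Z spermatocytes and 9224853 in spermatogonia. Reads of 24–33 nt made up 12.4% to 24.8% of a library, and reads of 11–18 nt 20.7% to 52.2%. The runs of one biological sample correlated at a Spearman rho between 0.626 and 0.829 over the most read sequences, and spermatogonia replicate 1 in run 1 lay nearer to replicate 2 of the same run (0.794) than to its own second run (0.674). L/Z replicate 1 lay nearer to the other stage of the same run than to its own other run (0.626), with a rho to spermatogonia replicate 1 of 0.762 in run 1 and 0.702 in run 2. Values within each run are therefore given beside pooled ones. Among marker miRNAs, those of Sertoli cells (miR-202, both arms) summed to 6353 and 3959 RPM in L/Z spermatocytes and to 432 and 474 RPM in spermatogonia. The 2 measured meiotic markers, miR-34b-5p and miR-449a-5p, summed to 12.8 and 13.4 RPM against 5.88 and 1.57 RPM, and the 5 spermatogonial miRNAs to 120.2 and 80.0 RPM against 55.7 and 80.2 RPM, which overlap. Of these 5, miR-293-3p, miR-294-3p and miR-295-3p were each higher in both L/Z samples than in both spermatogonia samples (miR-293-3p at 31.1 and 31.2 RPM against 10.6 and 7.50 RPM), miR-221-3p was lower in both (18.6 and 15.4 RPM against 19.1 and 38.6 RPM), and miR-222-3p overlapped. The order of miR-221-3p held in run 1 but not in run 2, where it was at 3.22 and 6.08 RPM against 3.09 and 1.04 RPM. For vascular and muscle-like cells only 1 of 4 markers could be matched, at 742 and 1159 RPM against 529 and 854 RPM, and 4 of 5 blood markers summed to 23.6 to 37.8 RPM over all 4 samples. Sequences that were read at least 10 times in the pachytene/diplotene library of the series, a later stage, made up 25.8% to 34.6% of the 24–33 nt reads in the 8 libraries. The part of Sertoli cell RNA and of later germ cells in the results was not tested.

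To see which retrotransposons differed between the stages without Pld6, the deposited RPM of 262 names were compared by strand and by length class (11–18, 19–23, 24–27, 28–33 and 34–48 nt), where Fwd is the strand of the listed sequence and Rev its complement. Values averaging under 1 RPM were set aside, and 867 remained. L/Z spermatocytes exceeded spermatogonia in 119 of them (13.7%) and fell below in 9 (1.04%), in limma's test on log2(RPM + 1) at a Benjamini-Hochberg adjusted p under 0.05. The change was uneven among families, with 107 of the 119 in B1, B2 and IAP, 3 in L1 and 9 elsewhere. It was also uneven among lengths. At 24–27 nt 38 of 70 tested values were higher, at 28–33 nt 32 of 60, at 19–23 nt 27 of 171, at 34–48 nt 16 of 42, and at 11–18 nt 6 of 524. No value of 24–33 nt was called lower. The 3 B1 names share reads, as do names within the other families, so they are not separate measurements. limma estimated a common spread, which gave every value a standard error of 0.39 on the log2 scale. The run 1 libraries alone gave 114 higher and 8 lower, and the run 2 libraries alone 62 higher and none lower (102 with an unadjusted p under 0.05), of which 16 were B1, 11 B2 and 34 IAP. Rescaling each library to its retrotransposon total moved the median over all values from −0.07 to −0.35 and left 17 higher and none lower in limma's test (279 with an unadjusted p under 0.05), of which 9 were B1, 4 B2 and 1 IAP.

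**Figure D1:**
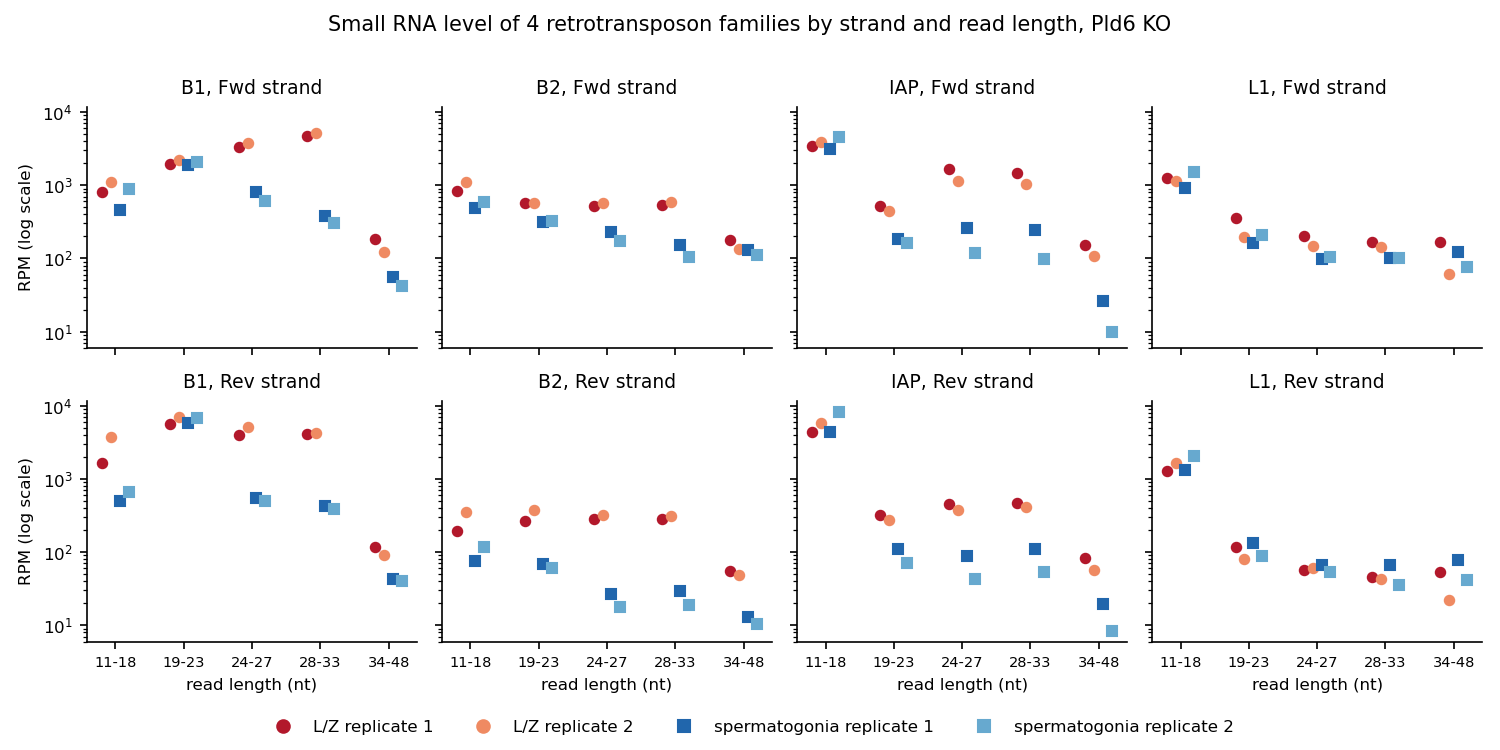
Deposited RPM summed over the names of B1, B2, IAP and L1 (panels) by strand and length class (x axis), on a log scale, with 1 point for each biological sample and n = 2 a stage. B1 at 24–33 nt stood at 16089 and 18223 RPM in L/Z spermatocytes against 2156 and 1796 RPM in spermatogonia, while at 19–23 nt the stages overlapped.

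B1, a SINE derived from 7SL RNA, gave 20 of its 30 values higher and none lower. All 12 values of 24–33 nt rose on both strands, and none of the 6 values of 19–23 nt passed the test. B1_Mm Fwd reads of 28–33 nt stood at 1966 and 2193 RPM in L/Z spermatocytes and at 171 and 109.6 RPM in spermatogonia, a log2 difference of 3.91 ± 0.39 (SE, n = 2 a stage, limma adjusted p = 9.57e-20). Reads of 24–27 nt on the same strand stood at 1378 and 1547 RPM against 347 and 248 RPM, a log2 difference of 2.31. The stages were thus further apart for the longer class. On the Rev strand the difference of B1_Mm was alike in both classes, with 2009 and 2547 RPM against 301 and 267 RPM at 24–27 nt (log2 2.99) and 1999.6 and 2082 RPM against 260.5 and 248 RPM at 28–33 nt (log2 3.00). B1_Mus1 and B1_Mus2 Rev gave log2 differences of 3.26 and 3.25 at 24–27 nt and of 3.72 and 3.81 at 28–33 nt. The values of B1_Mm at 19–23 nt were large but close between stages. Fwd reads of that class were at 665 and 783 RPM against 626 and 688 RPM, and Rev reads at 2313 and 3063 RPM against 2071 and 2399.7 RPM, with both pairs of groups overlapping and a limma adjusted p of 0.98 for each.

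At 11–18 nt the calls for B1 lay on one strand, although the difference between the strands was not itself tested. In that class all 3 Rev values rose, with B1_Mm at 553 and 1247 RPM against 169 and 234 RPM (log2 2.06), and none of the Fwd values did, with B1_Mm at 287 and 404 RPM against 159.5 and 303 RPM. At 34–48 nt all 3 Fwd values and 2 of 3 Rev values rose, and B1_Mm Rev stood at 41.5 and 34.8 RPM against 20.5 and 19.2 RPM (log2 0.90, limma adjusted p = 0.136). B1_Mus1 Fwd of that class stood at 60.2 and 44.9 RPM against 18.6 and 10.98 RPM (log2 1.79).

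B2, a SINE derived from a tRNA, gave 21 of 30 values higher and none lower, and here the strands parted. All 15 Rev values rose, in every length class, whereas on the Fwd strand only the 6 values of 24–33 nt did. B2_Mm2 Rev reads of 28–33 nt were at 144 and 153 RPM against 13.6 and 6.74 RPM, a log2 difference of 3.81, and its Fwd reads at 273 and 325 RPM against 50.03 and 31.2 RPM, a log2 difference of 2.88. At 19–23 nt the Rev reads of B2_Mm2 stood at 102 and 146 RPM against 26.99 and 22.1 RPM, a log2 difference of 2.28 (limma adjusted p = 1.74e-07). Its Fwd reads of that class were at 247 and 241 RPM against 127 and 120.5 RPM, a log2 difference of 0.97 that missed the threshold with a limma adjusted p of 0.089.

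IAP, an endogenous retrovirus with long terminal repeats (LTRs), had 25 names and 136 tested values, of which 66 were higher and 2 lower. At 24–27 nt 21 of 22 values rose, at 28–33 nt 18 of 23, at 34–48 nt 8 of 8 and at 19–23 nt 19 of 33, while at 11–18 nt none of 50 rose. IAPEz-int, the internal part of the IAP provirus, was the most abundant name. Its Fwd reads of 24–27 nt were at 1331 and 918 RPM against 204 and 84.9 RPM (log2 3.06 ± 0.39 SE, n = 2 a stage), and its Rev reads at 319.6 and 259.9 RPM against 65.7 and 33.3 RPM (log2 2.60). IAPEz-int also rose at 34–48 nt, with Fwd reads at 129.7 and 93.4 RPM against 21.0 and 8.28 RPM (log2 2.96). The LTR name IAPLTR1_Mm stood at 152 and 91.8 RPM against 25.5 and 15.2 RPM for Fwd reads of 24–27 nt (log2 2.52). IAPA_MM, an IAP of another subtype, gave the largest log2 difference among IAP names, 3.37, with Fwd reads of 24–27 nt at 89.6 and 65.1 RPM against 11.6 and 3.43 RPM. In these IAP values L/Z replicate 1 exceeded replicate 2, and spermatogonia replicate 1 exceeded replicate 2, and the stages did not overlap.

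L1 differed from these 3 families. Of 120 tested values of 16 L1 names, 3 were higher and 1 lower, and the median log2 difference over the 42 values of 24–33 nt was 0.10, against 3.26 for B1 and 2.17 for IAP. These medians depend on the filter of 1 RPM, which a low value can pass through 1 stage alone. With the other L/Z and spermatogonia libraries of the series counted in the filter, they were 0.10 over 60 L1 values and 1.49 over 68 IAP values. L1_Mm_orf2, the reverse transcriptase part of L1 and its most abundant name, had Fwd reads of 24–27 nt at 114.5 and 77.01 RPM against 47.7 and 58.6 RPM, a log2 difference of 0.82 (limma adjusted p = 0.21). Its Rev reads of that class were at 20.6 and 23.4 RPM against 22.2 and 21.1 RPM, which overlap. The values that rose were L1Md_T_3end Fwd at 28–33 nt (14.1 and 10.8 RPM against 3.89 and 5.17 RPM, log2 1.29), L1Md_A_3end Fwd at 28–33 nt (5.62 and 10.5 RPM against 3.27 and 2.93 RPM, log2 1.09) and L1Md_A_5end Rev at 24–27 nt. This last value, from the promoter end of the A subfamily, was low, at 3.42 and 3.98 RPM against 1.74 and 0.26 RPM (log2 1.34, limma adjusted p = 0.0062). L1Md_A_5end Fwd of the same class stood at 11.96 and 9.23 RPM against 6.63 and 6.62 RPM (log2 0.59, limma adjusted p = 0.56). None of the 3 L1 calls remained without either L/Z replicate or in run 2 alone.

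Outside these families 9 values rose, on 6 names of endogenous retroviruses. MLTR25A Rev reads of 19–23 nt were the most abundant, at 146 and 197 RPM against 30.7 and 54.2 RPM (log2 2.03). RLTR41 Rev reads of 19–23 nt changed most, from 0.37 and 0.70 RPM in spermatogonia to 6.29 and 7.21 RPM in L/Z spermatocytes (log2 2.35 on the log2(RPM + 1) scale, which understates low values). MMERVK10C, a relative of IAP, stood at 28.2 and 17.1 RPM against 8.18 and 6.39 RPM for Fwd reads of 19–23 nt (log2 1.48). The 9 values called lower held 4 of 11–18 nt, 4 of 19–23 nt and 1 of 34–48 nt. MuLV-int Rev reads of 19–23 nt, from a murine leukaemia virus-like element, fell the most, with 2.04 and 3.16 RPM against 6.10 and 9.24 RPM (log2 −1.26). IAPLTR3 Fwd reads of 11–18 nt were at 43.4 and 27.96 RPM against 53.0 and 125 RPM (log2 −1.20). For RLTR31C_MM, also called lower, the stages overlapped. Without any one of L/Z replicate 1, L/Z replicate 2 or spermatogonia replicate 2, limma called 1 value lower.

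Of the 22 names picked with earlier results known (3 of B1, 3 of B2, 4 of IAP, 7 of L1 and 5 others), all had at least 1 tested value, and of their 187 values 77 were higher and 1 lower, beside 13.7% and 1.04% over all values tested. ETnERV and MERVL had no called value. MERVL Fwd reads of 19–23 nt, for example, were at 4.15 and 2.69 RPM against 4.995 and 7.37 RPM (log2 −0.70, limma adjusted p = 0.37). RLTR10C had none either, and in MMERGLN-int the Fwd reads of 24–27 nt alone rose, from 0.16 and 0 RPM to 3.17 and 1.08 RPM.

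The length make-up of each family followed from these levels. In spermatogonia 70.4% and 72.2% of B1 RPM were of 19–23 nt, in L/Z spermatocytes 28.8% and 28.6%. The share of 28–33 nt was 33.3% and 28.7% in L/Z spermatocytes against 7.36% and 5.65% in spermatogonia, and that of 24–27 nt 27.4% and 27.2% against 12.5% and 8.95%. B1 therefore had most of its reads at miRNA-like length in spermatogonia and at piRNA-like length in L/Z spermatocytes. IAP was mostly short in both stages, with 60.3% and 71.3% of its RPM at 11–18 nt in L/Z spermatocytes and 87.7% and 95.8% in spermatogonia. L1 overlapped between stages in that class, with 68.6% and 78.8% against 73.2% and 83.3%. The 11–18 nt class was also large in families with almost no longer reads. The ERVB and ETn names together averaged 12092 RPM at 11–18 nt and 7.94 RPM at 24–33 nt in L/Z spermatocytes. How far reads of 11–18 nt are specific to a family was not tested. With 2 samples against 2 the two-sided exact permutation test cannot give a p below 0.33, so these shares and all single values below are compared by whether the groups overlap.

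The antisense share, Rev RPM over the sum of both strands, moved in B2 at every length. At 24–27 nt it was 34.9% and 35.9% in L/Z spermatocytes against 10.2% and 9.36% in spermatogonia, and at 19–23 nt 31.8% and 39.4% against 17.9% and 15.5%. In B1 it was higher in L/Z spermatocytes at 24–27 nt, at 54.9% and 58.1% against 40.1% and 45.0%, and lower at 28–33 nt, at 46.3% and 44.7% against 53.1% and 56.1%. Over these classes and samples the B1 antisense share lay between 40.1% and 58.1%. IAP was mostly sense at 24–27 nt, with an antisense share of 21.3% and 24.6% against 25.5% and 26.6%. At 11–18 nt, where the specificity of reads was not tested, its antisense share was 55.9% and 59.9% against 58.7% and 64.5%. Without IAPEz-int the IAP difference at 24–27 nt changed sign, to 4.81 percentage points.

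To find which sequences made up these levels, the read lists were placed on 7 stretches of B1, B2 and IAP with at most 2 mismatches. B1 reads of 24–33 nt placed in sense stood at 7554 and 8446 RPM in L/Z spermatocytes against 1117 and 789 RPM in spermatogonia (8.39-fold), and in antisense at 8298 and 9616 RPM against 982 and 924 RPM (9.40-fold). Within run 1 the folds were 9.43 and 10.6 and within run 2 7.79 and 8.76. Reads on the 3 families made up 8.88% and 12.5% of all 24–33 nt reads in L/Z spermatocytes against 1.37% and 1.41% in spermatogonia, of which B1 alone gave 7.71% and 11.1% against 1.08% and 1.15%. The reads of 24–33 nt left outside these families were therefore the large majority in both stages.

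The B1 reads began at few positions. The 10 most read 5′ positions were ranked by the mean over all samples of both stages, to which L/Z reads contributed most. They held 90.1% and 91.1% of B1 reads of 24–33 nt in L/Z spermatocytes and 75.1% and 73.9% in spermatogonia. On the sense strand position 82 led, with 3632 and 3655 RPM against 396 and 263 RPM (11.1-fold; 12.3-fold in run 1 and 10.3-fold in run 2). Position 52 followed with 1019 and 1546 RPM against 103 and 68.5 RPM (14.98-fold), and position 81 with 869 and 922 RPM against 128 and 70.4 RPM. Position 19 had a larger fold, 26.98, from 33.1 and 11.4 RPM to 642 and 558 RPM. On the antisense strand position 121 led in L/Z spermatocytes, with 3257 and 4608 RPM against 302 and 247 RPM (14.3-fold; 16.1-fold in run 1 and 13.5-fold in run 2), before position 91 with 2162 and 2029 RPM against 296 and 328 RPM (6.71-fold). In spermatogonia position 91 held more of the antisense strand (32.8%) than position 121 (28.8%). Position 119 stood at 982 and 1356 RPM against 115 and 101 RPM, and position 61 at 754 and 451 RPM against 53.4 and 54.0 RPM. At every one of the 10 positions both L/Z samples exceeded both spermatogonia samples, which the ranking favoured. Among these positions, sense starts at 52 and 82 and antisense starts at 61, 91 and 121 were each 30 nt apart. Starts at 19, 55, 81, 90 and 119 did not follow this spacing, with gaps such as 33 nt (19 to 52), 26 nt (55 to 81) and 29 nt (90 to 119). The gap from 52 to 82 mirrors that from 61 to 91, since these starts are partners at a 10-nt overlap.

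**Figure D2:**
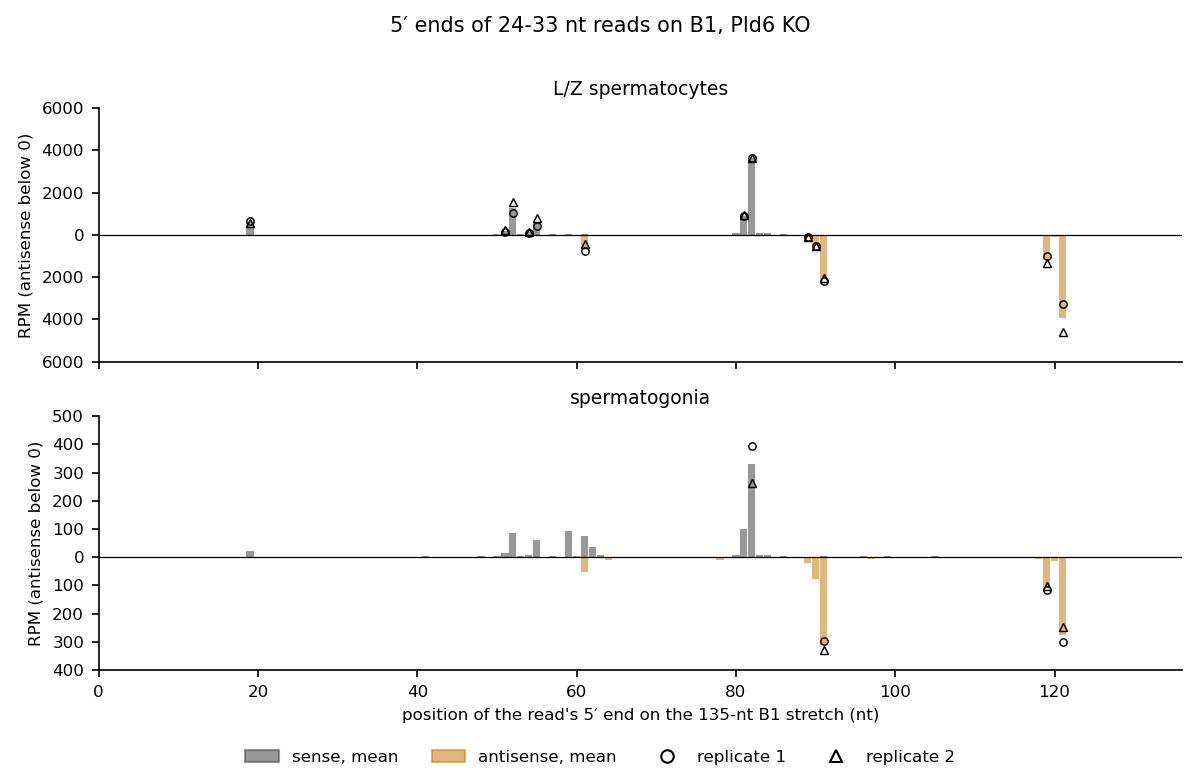
5′ ends of B1 reads of 24–33 nt along the 135-nt B1 stretch (x axis, nt), in RPM, as the mean of n = 2 samples a stage with sense upward and antisense downward, on separate y scales for the stages, and open marks for each sample at the more read positions. In both stages the ends gathered at the same few positions, led by 82 in sense and by 121 and 91 in antisense.

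The overlap between strands was 10 nt. Of all pairs of B1 reads of 24–33 nt on opposite strands whose 5′ ends overlapped by 1 to 25 nt, 57.3% and 56.1% overlapped by exactly 10 nt in L/Z spermatocytes and 45.7% and 47.3% in spermatogonia, and 10 nt ranked first in each stage. Starts at 82 and 91 and at 52 and 61 are such partners. The partner positions of 55 and 19 sense are 64 and 28 antisense, which were not among the 10 most read at 24–33 nt. Their most read single forms averaged 9.04 and 1.61 RPM in L/Z spermatocytes, beside 87.1 and 56.3 RPM for those of 55 and 19. At 19–23 nt position 28 antisense stood at 289 and 264 RPM against 49.1 and 31.3 RPM. The partner position of 121 antisense is 112 sense. Reads from 28 and 112 run towards an end of the stretch, so the longest from 28 and most from 112 could not be placed. In B2 a 10-nt overlap was found in 21.4% and 19.2% of pairs in L/Z spermatocytes, where it ranked first, and in 6.47% and 0.84% in spermatogonia, where it ranked 13. In IAP the stages overlapped, with 29.4% and 26.7% against 33.7% and 10.9%. The fewest antisense reads of 24–33 nt placed in any sample were 67 for B2 and 51 for IAP, so some of these shares rest on few reads.

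**Figure D3:**
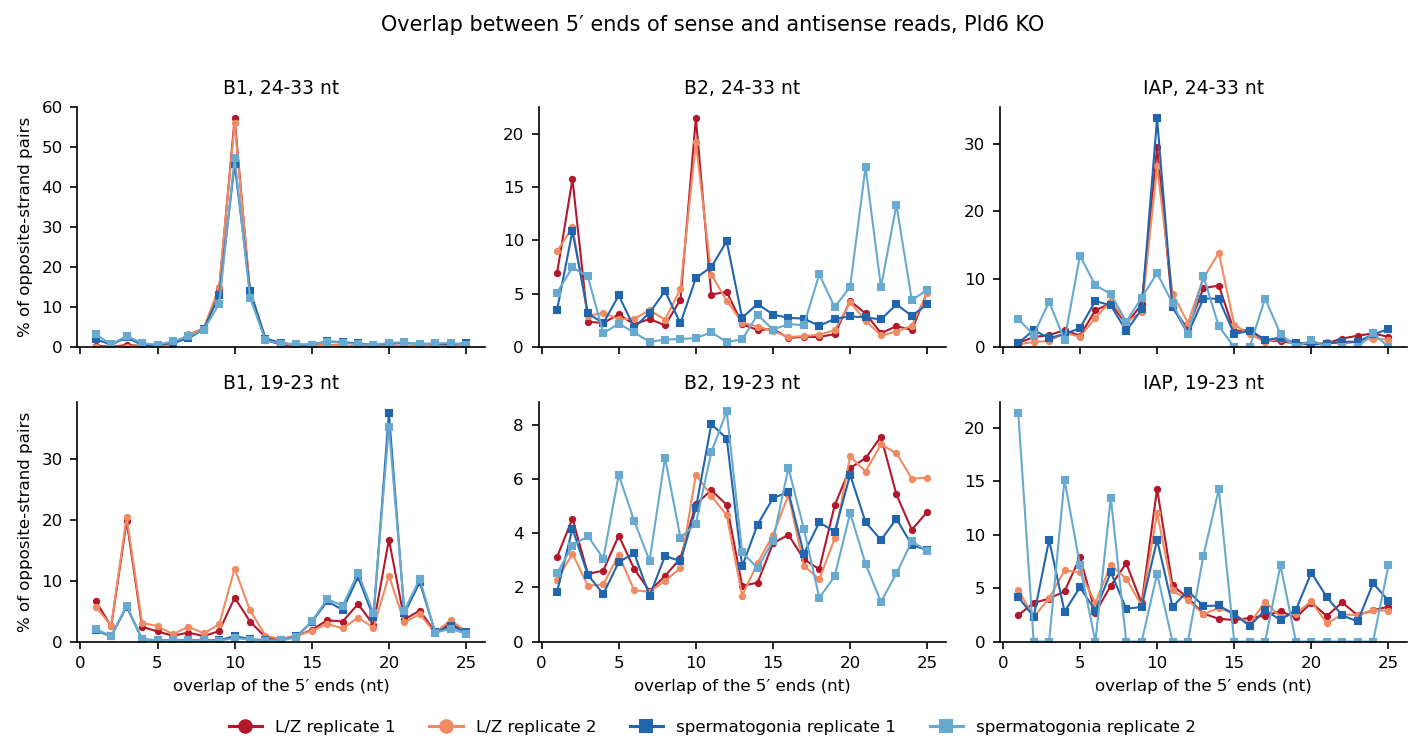
Share of opposite-strand 5′ pairs (y axis, percent) by overlap in nt (x axis) for B1, B2 and IAP reads of 24–33 nt (top) and of 19–23 nt (bottom), each panel on its own y scale, with 1 line for each biological sample, n = 2 a stage. B1 peaked at 10 nt at 24–33 nt in every sample and at 20 nt at 19–23 nt in spermatogonia (37.6% and 35.4%).

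In B1 the first base differed between the strands. Among placed B1 reads of 24–33 nt, 66.4% and 72.9% of antisense reads began with U in L/Z spermatocytes against 57.4% and 54.0% in spermatogonia, while only 27.6% and 28.9% of sense reads did, against 25.3% and 21.4%. The leading sense start, position 82, begins with A and the leading antisense start in L/Z spermatocytes, position 121, with U, as the sequences above show. These starts are not partners at a 10-nt overlap. The partner of position 82 is position 91. In spermatogonia the leading antisense start was position 91, which begins with C. In B2 antisense reads U came first in 79.3% and 80.4% against 59.7% and 62.1%, and A stood at base 10 in 66.6% and 64.9% against 46.4% and 45.3%. B2 sense reads began with U in 34.8% and 34.7% against 35.9% and 34.6%, which overlap. IAP reads began with U in 68.0% and 65.4% in sense and 65.7% and 69.0% in antisense in L/Z spermatocytes, and IAP antisense reads carried A at base 10 in 60.7% and 58.5% against 57.5% and 50.5%. Over all reads in the libraries, U was the first base of 43.2% and 51.3% at 24–27 nt against 41.2% and 40.4%, and of 26.4% and 29.6% at 28–33 nt against 21.5% and 22.6%. In the single-library L/Z and spermatogonia samples of the same series, which carry no technical replicate number, it was 71.5% to 76.5% and 58.0% to 72.5% in these classes.

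At 19–23 nt the total of B1 was alike between stages, 10479 and 13634 RPM against 10246 and 11306 RPM for placed reads, but the positions were not. The following pair of 22-nt sequences led the B1 reads of this class in spermatogonia, and capitals mark the 20 nt in which they are reverse complements, which leaves 2 nt unpaired at each 3′ end.
B1 position 59, sense, 22 nt: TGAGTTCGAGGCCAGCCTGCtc
B1 position 78, antisense, 22 nt: GCAGGCTGGCCTCGAACTCAgt
A run of 16 nt at the start of the sense sequence also occurs in the annotated miRNA miR-1195, and a match over its full length was not checked. The sense sequence was counted at 183 and 179.6 RPM in L/Z spermatocytes and 483 and 314 RPM in spermatogonia. The antisense sequence was counted at 541 and 291 RPM against 1294 and 1411 RPM. Both were lower in both L/Z samples.

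Over all their forms, reads from position 78 antisense stood at 1054 and 639 RPM in L/Z spermatocytes against 2616 and 2904 RPM in spermatogonia (0.307-fold; 0.314-fold in run 1 and 0.3003-fold in run 2), and reads from position 59 sense at 919 and 1031 RPM against 1942 and 1901 RPM (0.508-fold). The pair together made up 18.8% and 12.2% of B1 reads of 19–23 nt in L/Z spermatocytes and 44.5% and 42.5% in spermatogonia. The 10 positions that led the longer reads made up 51.3% and 60.8% against 19.1% and 17.5%. Among them position 121 antisense rose 4.51-fold, from 385 and 328 RPM to 1236 and 1983 RPM, position 91 antisense 4.14-fold, and position 61 antisense 3.10-fold. The steady B1 level at 19–23 nt thus summed a lower 22-nt pair and higher short reads from the starts of the longer ones. An overlap of 20 nt was found in 16.8% and 10.9% of pairs at this length in L/Z spermatocytes and in 37.6% and 35.4% in spermatogonia. An overlap of 3 nt, which starts at 59 sense and 61 antisense have, was found in 19.8% and 20.5% against 5.74% and 5.92%.

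**Figure D4:**
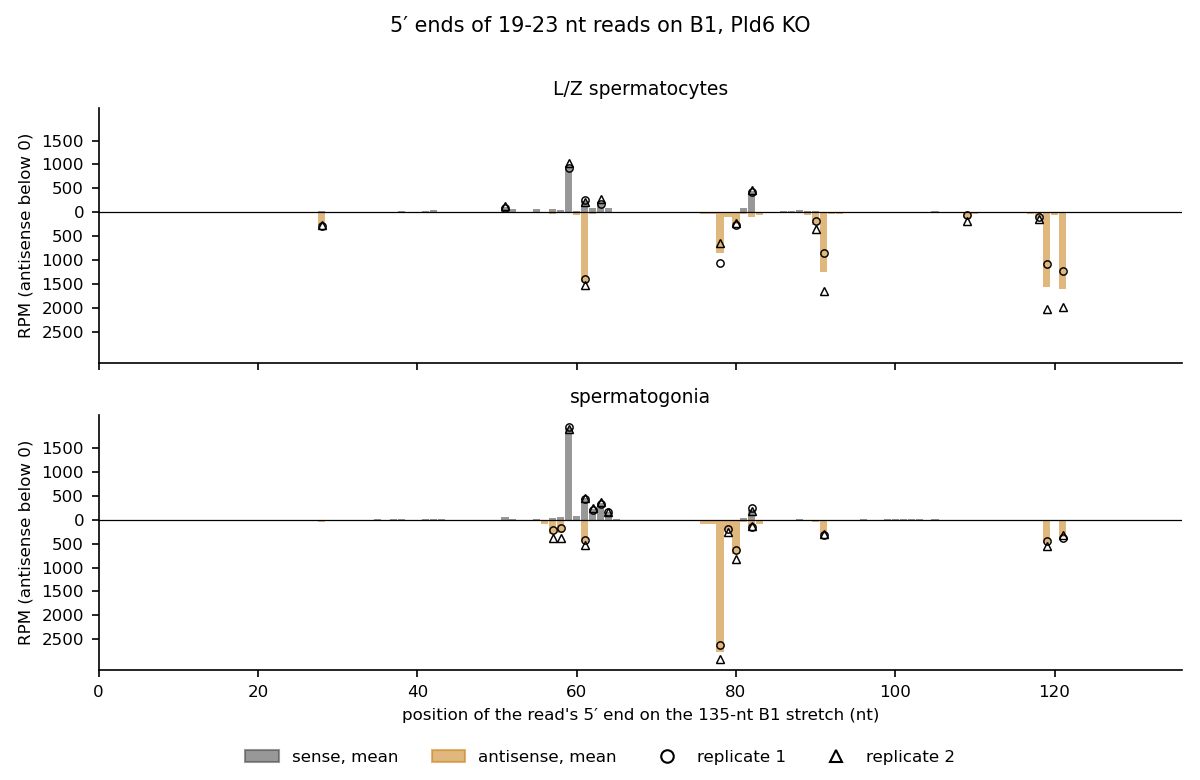
5′ ends of B1 reads of 19–23 nt along the 135-nt B1 stretch (x axis, nt), in RPM, as the mean of n = 2 samples a stage with sense upward and antisense downward and open marks for each sample at the more read positions. Positions 59 sense and 78 antisense led in spermatogonia, and antisense positions 121, 119, 61 and 91 in L/Z spermatocytes.

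B2 reads of 24–33 nt rose on both strands but more in antisense, from 50.5 and 36.7 RPM to 537 and 587 RPM (12.9-fold; 15.4-fold in run 1 and 11.5-fold in run 2), than in sense, from 366 and 275 RPM to 1038 and 1155 RPM (3.42-fold). In L/Z spermatocytes the 4 most read B2 starts of a strand held 80.7% of antisense and 41.3% of sense reads. For B1 these shares were 87.1% and 80.4%. In spermatogonia the B2 shares were 43.6% and 40.2%. The leading forms on B2 are shown with the first 10 nt in capitals.
B2 form 1, position 71, antisense: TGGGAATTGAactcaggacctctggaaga
B2 form 1, position 33, sense: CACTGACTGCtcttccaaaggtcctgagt
B2 form 2, position 102, antisense: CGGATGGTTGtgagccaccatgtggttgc
B2 form 1 position 71 held 63.4% of the antisense reads of that form in L/Z spermatocytes, with 256.1 and 272 RPM against 12.6 and 11.1 RPM (22.2-fold). Position 33 sense stood at 140.2 and 179 RPM against 10.96 and 2.67 RPM (23.4-fold). Not every B2 start moved so far. Position 99 sense, the largest sense start in spermatogonia, was at 129 and 97.6 RPM against 77.3 and 53.4 RPM (1.73-fold).

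IAP reads of 24–33 nt stood at 529 and 323 RPM against 97.9 and 45.8 RPM in sense (5.93-fold; 6.61-fold in run 1 and 5.55-fold in run 2) and at 270.2 and 240.1 RPM against 55.3 and 28.2 RPM in antisense (6.11-fold). They were counted on 4 short stretches only, since no IAP consensus was used. Stretch 2 is LTR sequence, and the others were taken as IAP because 6 of 9 genes holding stretch 1, 23 of 28 holding stretch 3 and 15 of 25 holding stretch 4 also held stretch 2. Much read forms of stretches 1 and 2 are shown with the first base in capitals, which was U, written T, in each. Not all such forms began with U. A form from stretch 4 position 46 sense, at 9.08 and 4.66 RPM in L/Z spermatocytes, began with A.
IAP stretch 1, position 107, antisense: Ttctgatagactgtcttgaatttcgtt
IAP stretch 2, position 99, sense: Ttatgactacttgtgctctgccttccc
IAP stretch 2, position 58, sense: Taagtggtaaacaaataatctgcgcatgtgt
IAP stretch 1 position 107 antisense stood at 48.7 and 48.4 RPM against 7.82 and 3.85 RPM (8.32-fold), and IAP stretch 2 position 58 sense at 37.0 and 19.3 RPM against 4.28 and 3.13 RPM (7.60-fold).

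The comparison was repeated without any list of retrotransposons, on 5′ groups, that is all reads of 24–33 nt that share their first 20 nt, counted per biological sample. Of 9897 groups tested with edgeR's quasi-likelihood test, 1366 (13.8%) were higher in L/Z spermatocytes and 131 (1.32%) lower at a Benjamini-Hochberg adjusted p under 0.05. Of 1103 groups on B1 760 were higher and 12 lower, of 260 on B2 160 were higher and none lower, and of 81 on IAP 54 were higher and none lower. Of 440 groups that matched a miRNA 21 were higher and 7 lower, and of 4450 that matched no transcript 97 were higher and 78 lower. The reference held no tRNA or rRNA precursor sequences, so fragments of these RNAs could fall among the groups without a match. Sequences from the sense strand of other transcripts gave 194 of 637 higher. Among groups with a mean of at least 10 CPM, the same scale for counts,, 202 of 1885 were higher, 146 of them on B1, B2 or IAP, and 53 were lower, 6 of them on those families. Without L/Z replicate 2 edgeR called 500 higher and without spermatogonia replicate 1 137, which left the shallow spermatogonia replicate 2 alone, and the run 1 libraries alone gave 228 of 1820 groups and the run 2 libraries 1295 of 9224. Without normalization by TMM 539 were higher and 9 lower.

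The 10 higher groups with the largest change and at least 10 CPM all lay on B1 or B2, with log2 differences of 4.89 to 5.61. The B2 form 2 sequence from position 102 given above changed the most, from 4 reads and 1 read in spermatogonia to 166 and 205 reads in L/Z spermatocytes (0.54 and 0.55 CPM against 26.7 and 19.05 CPM, log2 5.61 ± 0.88 SE, edgeR adjusted p = 2.74e-07). The B1 sequence from position 19 given above was the most abundant of the 10, at 309 and 272 CPM against 18.1 and 4.42 CPM (log2 4.92). The 10 lower groups had log2 differences of −2.43 to −2.84. Among them 2 matched B1 in sense near its start with 2 or 3 mismatches, 5 matched no transcript, 2 matched other transcripts and 1 a small RNA gene. The 10 most read groups without a miRNA match lay outside B1, B2 and IAP, and none was called. Of them 8 had no matching transcript in the reference, which lacked tRNA and rRNA precursor sequences. The first of them stood at 5215 and 2042 CPM against 9724 and 1922 CPM.

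Among all groups tested, 932 had a partner on the opposite strand at a 10-nt overlap, in 3592 pairs. Pairs were ranked by their reads in L/Z spermatocytes, and the first 10 all lay on B1. Each of their partners was higher in L/Z spermatocytes, which this ranking favoured. The pair from positions 82 and 91 whose sequences stand first above held 26.2% of the read pairs, with its sense partner at 1481 and 1393 CPM against 176 and 74.6 CPM (log2 3.78 ± 0.69 SE, edgeR adjusted p = 5.72e-06) and its antisense partner at 1150.5 and 955 CPM against 199 and 204 CPM (log2 2.49 ± 0.65 SE, edgeR adjusted p = 0.0019). The second form of this pair held 23%. The pair from positions 52 and 61 held 3.69%, with the sense partner at 689 and 857 CPM against 64.3 and 33.1 CPM. In these 3 pairs the sense partner began with A and the antisense partner with C or, at position 61, with U. Among the others of the 10, both partners began with U in the pairs from positions 81 and 90, and the sense partner began with G in a second form of the pair from positions 52 and 61.

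To ask whether the stage difference was particular to these libraries, it was set against that of the single-library samples of the series, 2 of L/Z spermatocytes and 1 of spermatogonia, in one limma fit with an interaction term. The set, the genotype given in the table headers and the sequencing cannot be told apart in this contrast, and the spread of the lone spermatogonia library is taken from the other groups. Of 1102 values tested, 89 (8.08%) had a more positive L/Z minus spermatogonia difference in the libraries with technical replicates and 59 (5.35%) a more negative one, at a Benjamini-Hochberg adjusted p under 0.05. Every tested B1 and B2 value of 24–33 nt, 12 of 12 each, was among the more positive, as were 22 of 68 IAP values and 3 of 60 L1 values, and none of these families had a more negative value at 24–33 nt. The median L/Z minus spermatogonia log2 difference of B1 at 24–33 nt was 3.26 in the libraries with technical replicates and −0.39 in the single ones, and that of B2 3.08 and −0.09. For IAP the medians were 1.49 and 0.06, and for L1 0.10 and −0.41.

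**Figure D5:**
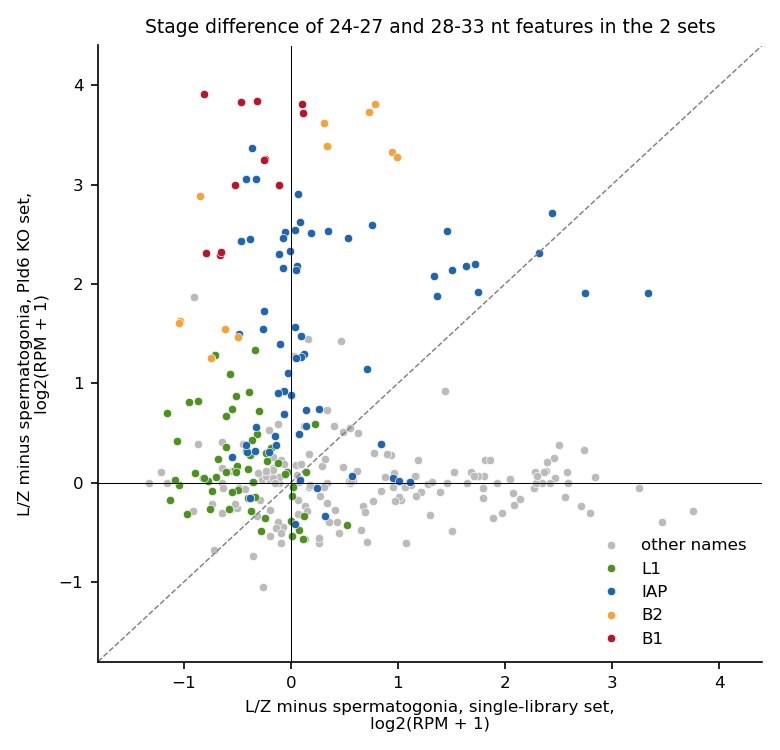
L/Z minus spermatogonia difference in log2(RPM + 1) of each tested value of 24–33 nt in the single libraries (x axis, n = 2 and 1) and in the libraries with technical replicates (y axis, n = 2 and 2), by family. All 12 B1 and all 12 B2 values lay above the diagonal of equal differences.

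The starts themselves differed between the sets. Position 82 sense, at 3632 and 3655 RPM in L/Z spermatocytes with technical replicates, stood at 29.2 and 78.6 RPM in the single L/Z libraries and at 89.0 RPM in the single spermatogonia library, and position 91 antisense at 32.1, 86.4 and 56.1 RPM. The neighbouring position 81 sense, which begins 1 nt earlier, stood at 248 and 549.9 RPM in the single L/Z libraries and at 825 RPM in the single spermatogonia library, and position 90 antisense at 285, 499 and 593 RPM. Placed B1 sense reads of 24–33 nt began with U in 72.8% to 78.6% of reads in the single libraries and in 21.4% to 28.9% in those with technical replicates. These values are a description, with 1 spermatogonia library in the single set.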

How the data were processed

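Small RNAs of sorted cells were sequenced from total RNA with the TruSeq Small RNA kit, in run 1 with 50-bp reads and in run 2 with 100-bp reads. The submitters' processing notes name cutadapt. The authors' sequence lists hold raw read counts per distinct sequence. Their tables hold RPM per retrotransposon, strand and length class, which were deposited already normalized. The study's methods state that rRNA, tRNA and miRNA reads were removed and that reads of 24–33 nt were mapped to retrotransposon consensus sequences with SeqMap, at up to 2 mismatches, and that a read with several equally good matches was split evenly among them. For reads of other lengths the mapping was not given in the sources used here. From the tables, 8 names that are satellites, other RNAs or stray entries were left out, and 262 were kept. The RPM of technical replicates were averaged, log2(RPM + 1) was tested with limma 3.58.1 where the mean was at least 1 RPM, and p-values were adjusted by Benjamini-Hochberg over all values.

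Counts of technical replicates were summed over reads of 24–33 nt with the same first 20 nt and tested with edgeR 4.0.16 (TMM, filterByExpr). On simulated data of the same size, 84% of groups changed by 3 on the log2 scale were recovered, and 2% to 10% of those changed by 1.5. The 7 stretches were assembled from the 141767 GENCODE transcripts at hand by extending frequent 20-mers of the reads. Every read was placed with at most 2 mismatches (1 and 3 were alternatives, chosen after seeing the data). RPM of placed reads are relative to all reads of the list. Single values were compared with two-sided exact permutation tests. No genome was used, so no coordinates are given.

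Named were a list of 22 retrotransposons and up to 3 names with the largest called change in each strand and length class. Among 5′ groups, the 10 highest, the 10 lowest, the 10 most read and the 10 pairs most read in L/Z spermatocytes were named. The members and lists were chosen with earlier results of these data known. Alternatives left out each replicate, took each technical replicate alone or weighted by depth, and changed the pseudocount, filters, scaling, mismatches, spread and count test (DESeq2 1.42.0). The counts of technical replicates differed by more than sampling noise. Counting intervals are not given, since PCR copies were not separated.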

Additional observations from a re-analysis of the deposited data

Results flagged for a closer look

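The difference between stages was not alike in the libraries with technical replicates and in the single libraries of the series, by limma's interaction test with Benjamini-Hochberg adjustment. It was more positive for 89 values and more negative for 59, and for 31 and 61 after rescaling to the total over all listed retrotransposons. The set, the genotype in the table headers and the sequencing cannot be told apart here, and the single set has 1 spermatogonia library.

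The more positive differences were largest in B1, with an interaction of 4.72 on the log2 scale for B1_Mm Fwd at 28–33 nt, 4.30 for B1_Mus2 and 4.15 for B1_Mus1 of the same strand and length. They were followed by B2_Mm2 Fwd at 28–33 nt and IAPA_MM Fwd at 24–27 nt, both at 3.73. At 24–33 nt they took in 12 B1 values, 12 B2 values, 22 IAP values and 3 L1 values. The most negative differences fell on MERVL, with −2.49 for Rev reads of 34–48 nt, −2.31 for Rev reads of 24–27 nt, −2.24 for Rev reads of 28–33 nt and −2.17 for Fwd reads of 34–48 nt, and on RLTR10C Rev at 28–33 nt with −2.18.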

How the results depend on the processing

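Of 867 retrotransposon values 119 were higher and 9 lower. Leaving out 1 replicate gave 71 to 100 higher and 1 to 10 lower, run 2 alone gave 62 and 0, weighting the technical replicates by depth 69 and 0, no filter on low values 31 and 0, a mean of at least 10 RPM 63 higher, limma trend 5 lower, and rescaling to the total over all listed retrotransposons 17 and 0. Of the 5′ groups, 1366 were higher and 131 lower. Leaving out 1 replicate gave 137 to 1539 higher and 44 to 142 lower, run 1 alone 228 and 34 (of 1820 tested), no TMM 539 and 9, and DESeq2 33 lower. The share of higher among called groups was 66.5% without spermatogonia replicate 1 against 91.2%. The median over groups was 0.03, −0.09 without TMM and 0.41 with DESeq2. For the contrast of the sets, a pseudocount of 0.1 gave 28 more positive and 17 more negative, and rescaling gave 31 more positive and 61 more negative, so that the majority changed side.

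A replicate block gave 125 higher and 13 lower values and 1395 higher and 207 lower groups. Deviations of samples with the same number correlated at 0.36 (values) and 0.21 (groups) with only 2 pairs, so the pairing was not used.

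These small differences changed sign. Rescaled, B1_Mm at 19–23 nt gave −0.16 (Fwd) and −0.039 (Rev) in place of 0.14 and 0.26. In percentage points, leaving out 1 replicate gave −1.32 to 4.22 for the B1 share at 11–18 nt, −0.14 to 0.34 at 34–48 nt and −1.49 to 0.058 for the B1 antisense share at 19–23 nt, −9.63 to 0.57 for the L1 share at 11–18 nt, −0.51 to 4.398 at 19–23 nt and −2.35 to 1.35 at 34–48 nt, −8.11 to 0.52 for the L1 antisense share at 11–18 nt, and −5.65 to 17.2 for the IAP 10-nt overlap. On the log2 scale it gave −0.040 to 0.34 for placed B1 reads of 19–23 nt. Run 2 alone gave 1.02 for the B1 antisense share at 19–23 nt, and run 1 alone 0.30 for the L1 share at 34–48 nt. Without IAPEz-int the IAP antisense differences were 4.81 at 24–27 nt and 0.0031 at 34–48 nt. The cause was not tested. The low depth of spermatogonia replicate 2 limits changes of few reads, and 2 samples a stage cannot pass a permutation test.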

Other observations

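The commonest length of placed B1 sense reads of 24–33 nt was 28 nt in L/Z spermatocytes (29.9% of reads) and 26 nt in spermatogonia (21.2%), whereas for B1 antisense reads it was 27 nt in both stages (25.5% and 28.4%). Among 5′ groups of 24–33 nt, 67 matched many genes, with hits on both strands, but lay outside the assembled B1, B2 and IAP stretches. Of these, 50 were higher in L/Z spermatocytes and none lower in edgeR's test, beside 13.8% and 1.32% of all groups. Their repeats were not identified, so diverged copies of B1 and B2 and other parts of IAP can be among them. Groups from rRNA, snoRNA and other small RNA genes gave 18 of 2572 higher and 15 lower.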
